A study of Mus musculus with 12 samples.

Results

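Open chromatin was compared between 2 sorted populations of mouse intestinal epithelial cells, Sox9 Low and Sox9 High. The comparison rests on the authors' consensus list of open regions (peaks) for each population, on the mm9 build. Joining the 2 lists wherever their peaks had 1 bp or more in common, or touched, turned 112751 peaks into 73092 regions. Merging all 4 lists of the series, 210325 peaks, gives 82365 regions. Each of the 73092 regions was classed as shared (a peak of both lists), Low only or High only, and the last 2 classes are called 1-list regions below.

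Both populations were intestinal epithelial cells of the C57Bl/6 strain with a Sox9EGFP reporter, sorted by reporter level and taken directly to Omni-ATAC-seq. In this assay the Tn5 transposase cuts and tags accessible DNA. Each population has 3 libraries (replicates A, B and C), and the labels name 12000 cells collected per population. The labels give no age or sex of the mice, and do not say whether the libraries came from separate animals. The reporter marks cells by their Sox9 level, so each gate can hold more than 1 cell type. Each population is 1 list without score, height or value per library, so no value below has a replicate error and no test across libraries could be made.

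The crypts of the small intestine are renewed by stem cells at their base, which are kept by Wnt signalling. SOX9 is a transcription factor of the crypt and a target of Wnt signalling. Previous studies with the reporter found the stem cells of the crypt base mainly in the Low gate, and enteroendocrine and other secretory cells mainly in the High gate. Enteroendocrine cells are the scattered hormone-producing cells of the gut lining, and they arise from the same stem cells by way of secretory progenitors. Open regions away from gene starts are often enhancers, which differ more between cell types than promoters do. No gene was placed on these regions, because an mm9 gene annotation was not used here, so the population labels could not be checked against marker genes.

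Most open chromatin was listed in both populations, and the Low population had more regions of its own. The shared class held 38863 regions, which was 53.2% of all (exact 95% interval 52.8 to 53.5%). Low alone held 19205 regions, 26.3% of the total (exact 26.0 to 26.6%), and High alone held 15024, 20.6% of the total (20.3 to 20.8%). Low only regions were thus 1.28 times as many as High only regions. These intervals take regions as independent and hold the counting error alone.

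The lead of Low in 1-list regions was close to the difference in list length. The Low list held 58356 peaks and the High list 54395, a difference of 3961, while Low only regions exceeded High only regions by 4181. Nearly the same number of peaks met the other list on both sides, 39151 Low peaks (67.1%) and 39371 High peaks (72.4%). This follows from the pairing, since 98.0% of shared regions held 1 peak of each list. The lead in 1-list regions thus restates the difference in list length and is not a separate observation. When the widest 27197 peaks of each list were taken, the counts were 7475 Low only and 7466 High only, a near equality that follows from lists of equal length. The depth of the libraries is unknown, and its part in list length was not tested.

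In bases, the lists overlapped over 19.7 Mb. These bases were 65.3% of the 30.1 Mb covered by Low peaks and 75.9% of the 25.9 Mb covered by High peaks. The 1-list regions covered 6.29 Mb in Low and 4.21 Mb in High.

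Regions held by 1 list were narrow, and those of Low were wider than those of High. Their median width was 285 bp in Low (order-statistic 95% interval 282 to 287) and 243 bp in High (241 to 246), against 594 bp for shared regions (591 to 598). The quartiles were 199 and 413 bp for Low only regions, and 178 and 348 bp for High only regions. A width of 500 bp was reached by 2773 Low only regions (14.4%) and 1133 High only regions (7.54%), against 38.7% of all regions. Over the whole lists, shared peaks included, the median peak width was 433 bp in Low and 383 bp in High. The greater width in Low was therefore not particular to 1-list regions. A shared region spans the peaks of both lists, so its width is set in part by the merging.

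The balance between the populations moved further to Low as the minimum width was raised. Low held 56.1% of all 1-list regions (exact 95% interval 55.6 to 56.6%), 59.4% of those of at least 200 bp (58.8 to 60.04%), 71.0% of those of at least 500 bp (69.5 to 72.4%) and 80.2% of those of at least 1000 bp (71.1 to 87.5%). The last group is small, with 81 Low only and 20 High only regions. Of all peaks of at least 1000 bp, shared or not, the Low list also held more, 5225 against 4171 in the High list. Under 100 bp the classes were nearly level, with 223 Low only and 237 High only regions. At 100 to 149 bp the balance lay with High. There 365 of 1204 Low peaks and 1219 of 2746 High peaks overlapped the other list, which leaves more High only than Low only regions. At 150 to 199 bp the overlapping peaks were 2386 of 6141 in Low and 3035 of 6471 in High, which leaves slightly more Low only regions. Width stands in for no measured signal, since the lists hold no peak height.

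Nearly all wide peaks were shared in both populations, and narrow peaks much less often. Of Low peaks of at least 1000 bp, 98.4% overlapped a High peak (5144 of 5225), and of High peaks of that width 99.5% overlapped a Low peak (4151 of 4171). Among peaks of 300 to 399 bp, the shares were 57.1% in Low (exact interval 56.0 to 58.1%) and 67.9% in High (66.9 to 68.9%). At every width class High peaks met a Low peak more often than Low peaks met a High peak. The Low list offers more to meet, with 58356 peaks over 30.1 Mb against 54395 over 25.9 Mb. The part of this in the shares by width class was not tested. The gap was widest under 100 bp, where 47.2% of 449 High peaks (42.5 to 52.0%) and 19.8% of 278 Low peaks (15.3 to 24.96%) overlapped the other list.

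**Figure D1:**
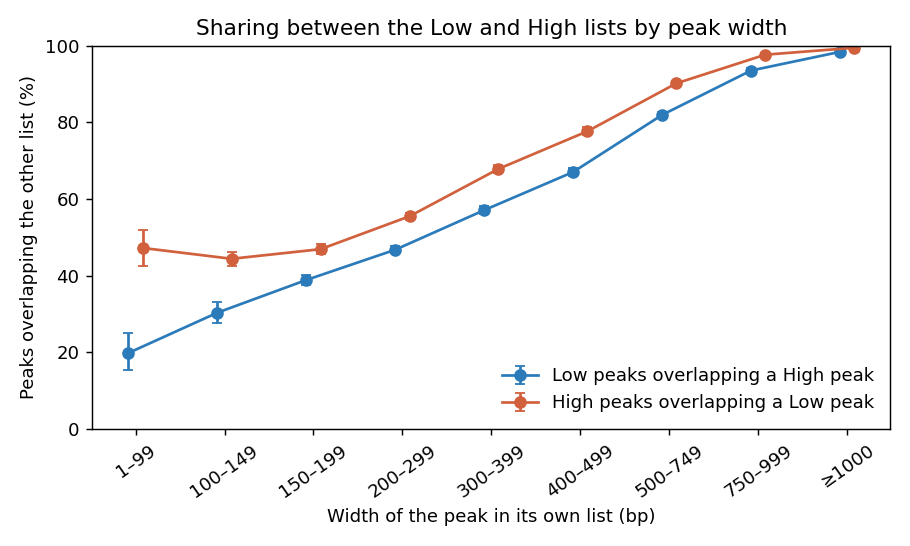
Share of peaks (y axis, percent) that overlap a peak of the other list, by the width of the peak in its own list (x axis, bp), for Low (blue) and High (orange), with exact 95% binomial intervals as bars. Both lines climb to over 98% at 1000 bp and more, and the High points lie above the Low points in each width class.

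The widest Low only regions reached 1804 bp. The first lay on chromosome 1 from 108089492 to 108091295, with the nearest High peak 4875 bp away. The next covered 1625 bp on chromosome 3 from 144423012 to 144424636, where the nearest High peak was 39378 bp off and the nearest other Low only region 96075 bp off. The others were 1460 bp on chromosome 11 from 94621394 to 94622853, 1418 bp on chromosome 5 from 87390963 to 87392380 and 1410 bp on chromosome 7 from 4703523 to 4704932. The chromosome 11 and chromosome 7 regions had a High peak within 1357 and 2342 bp. The nearest shared regions were 13332 and 11497 bp away from them.

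The widest High only region covered 1742 bp on chromosome 11 from 80965490 to 80967231. It lay 278628 bp from the nearest Low peak and 5698 bp from the nearest other High only region. Of the 2 lists compared, only the High list thus marked this stretch. The second, of 1529 bp on chromosome 6 from 52725811 to 52727339, was also far from any Low peak, at 61336 bp. The other regions were closer to shared chromatin. They covered 1396 bp on chromosome 12 from 103804244 to 103805639, 1296 bp on chromosome 2 from 34692334 to 34693629 and 1257 bp on chromosome 1 from 74931401 to 74932657, with the nearest Low peak 10690, 10171 and 2175 bp away.

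Where both lists marked a region, the peaks mostly lay over each other and the Low peak tended to be slightly wider. Of the shared regions, 38097 held 1 peak of each list. In these the median width was 541 bp in Low (536 to 545) and 476 bp in High (472 to 480), and the median of the log2 ratio of Low to High width was 0.09, or 1.07-fold. The Low peak was the wider in 63.2% and the High peak in 36.2%. The Low peak reached past the High peak by a median of 13 bp at the lower coordinate and 12 bp at the higher. These medians were taken separately over all these regions, so they do not show that the additional width was even within a region.

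The peaks of a shared region were mostly nested. In 17155 regions (45.0%) the Low peak held the whole High peak, in 8235 (21.6%) the High peak held the whole Low peak, and in 12617 (33.1%) each reached past the other. Both ends were identical in 90 regions. The centres of the peaks were a median of 32 bp apart, and the overlap covered a median of 79.3% of the merged region.

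Large differences in width within shared regions were uncommon and leaned to Low. The Low peak was at least 2-fold wider in 3387 regions, 8.89% of the 38097, and the High peak was at least 2-fold wider in 1427, 3.75% of them, a ratio of 2.37. With peaks of at least 200 bp only, these shares were 5.21% and 2.03%. These differences sat in small and middle-sized peaks. Where the geometric mean of both widths was 200 to 300 bp, 19.0% were at least 2-fold wider in Low and 9.03% in High. Between 1000 and 1500 bp these shares were 0.172% and 0.115%, and above 1500 bp none of 589 regions differed 2-fold, which allows a share of up to 0.509%. The median log2 ratio fell with size from 0.18 at 300 to 400 bp to 0.02 above 1500 bp.

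**Figure D2:**
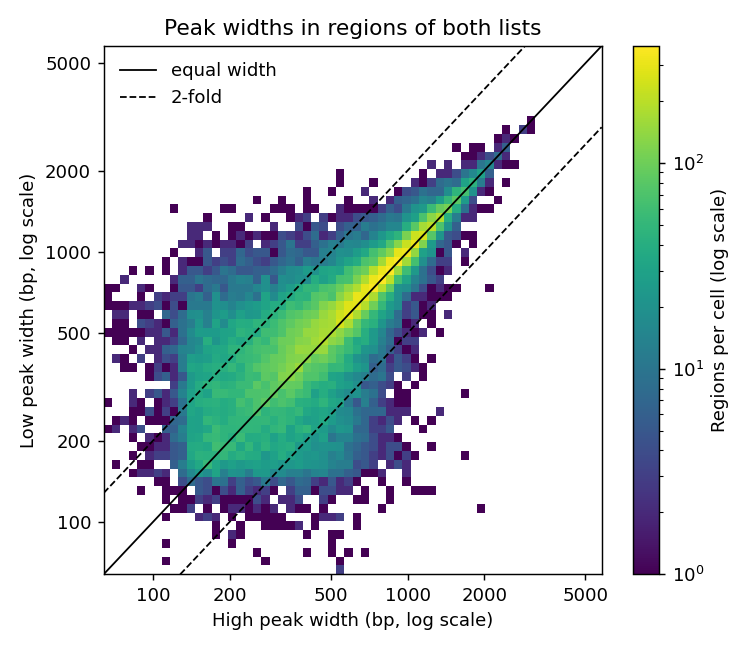
Width of the Low peak (y axis, bp, log scale) against the width of the High peak (x axis, bp, log scale) in shared regions with 1 peak of each list; colour gives the number of regions per cell, the solid line equal width and the dashed lines a 2-fold difference. Wide peaks follow the line of equal width, and below about 500 bp the cloud spreads past the dashed lines, more so on the Low side; 71 regions lie outside the axes.

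The shared regions with the largest width ratios show what a change in extent looks like. Among regions whose narrower peak was at least 200 bp, the largest ratio toward Low was on chromosome 12, where a Low peak of 1430 bp from 36719114 to 36720543 met a High peak of 203 bp from 36720335 to 36720537, a 7.04-fold difference. The High peak lay at the upper end of the Low peak. On chromosome 18 a Low peak of 1519 bp from 57807836 to 57809354 held a High peak of 250 bp, a 6.08-fold difference. On chromosome 9 a Low peak of 1231 bp from 92199795 to 92201025 held a High peak of 211 bp, a 5.83-fold difference.

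Toward High, the largest ratio was also on chromosome 9. A High peak of 1705 bp from 54394174 to 54395878 held a Low peak of 288 bp, a 5.92-fold difference. On chromosome 17 a High peak of 1154 bp from 66828660 to 66829813 held a Low peak of 219 bp (5.27-fold). On chromosome 19 a High peak of 1230 bp from 5841239 to 5842468 held a Low peak of 240 bp (5.13-fold, a log2 ratio of -2.36). In each of these 6 regions the narrower peak lay wholly inside the wider, so presence alone would count both populations as open there.

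A shared region rarely held several peaks of a list. This was so in 766 of the 38863 shared regions. A single Low peak spanned several High peaks in 482 regions, and a single High peak spanned several Low peaks in 272. The spanning peaks were wide, with medians of 1109 bp in Low and 1134 bp in High, and the gaps they bridged had medians of 256 bp and 227 bp. The region with the most peaks lay on chromosome 6 from 134741196 to 134742933 and held 3 Low and 2 High peaks within 1738 bp. Of the regions with 4 peaks, the first 2 along the genome were on chromosome 1, from 43502271 to 43504428 and from 74995347 to 74998574. In both, 1 Low peak spanned 3 High peaks.

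Some regions lay close to the limit of 1 bp that separated shared from 1-list regions. Among shared regions with 1 peak of each list, the overlap was under 50 bp in 88 (0.231%) and under 50% of the narrower peak in 127 (0.333%), and the smallest was 1 bp. On the other side, 58 Low only regions (0.302%) and 63 High only regions (0.419%) had a peak of the other list within 100 bp, the nearest at 2 bp. A stricter rule, an overlap of at least 50% of both peaks, left 33187 shared regions and gave 25169 Low only and 21208 High only regions. The lists held 5 peaks of 1 bp, 1 in Low and 4 in High. Of these, the Low peak and 1 High peak were 1-list regions and the other 3 lay in shared regions.

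High only regions lay farther from shared chromatin than Low only regions did. Their median distance to the nearest shared region was 12355 bp (order-statistic interval 12050 to 12655), against 8495 bp for Low only regions (8286 to 8702). Shared regions themselves were a median of 8871 bp from the next shared region (8744 to 9005), so Low only regions lay about as near to shared chromatin as shared regions lay to each other. Within 1000 bp of a shared region were 10.4% of Low only and 6.91% of High only regions, and farther than 50 kb from one were 10.5% of Low only and 17.3% of High only regions. Isolated sites followed the same order, with no region of any class within 50 kb for 6.62% of High only, 3.45% of Low only and 3.04% of shared regions. Over lists cut to their 27197 widest peaks, the distances to a shared region were longer and closer to each other, at 19109 bp for Low only and 21828 bp for High only.

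**Figure D3:**
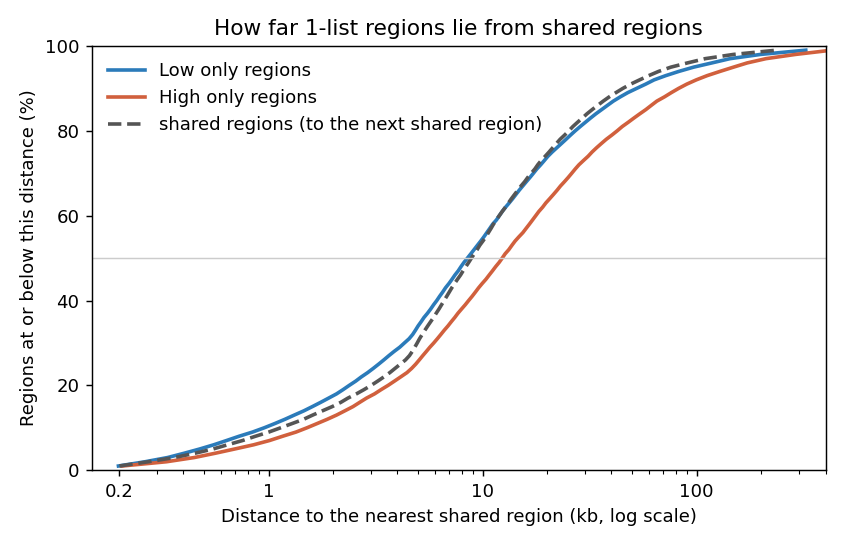
Cumulative share of regions (y axis, percent) by distance to the nearest shared region (x axis, kb, log scale) for Low only (blue), High only (orange) and shared regions (dashed, to the next shared region), drawn from the first to the 99th percentile. The Low only curve runs close to the dashed curve, with medians of 8495 and 8871 bp, and the High only curve lies to the right of both, with a median of 12355 bp.

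The widths of 1-list regions differed with this distance. Within 1000 bp of a shared region, the median width was 258 bp for Low only (251 to 265) and 208 bp for High only (202 to 217). Beyond 50 kb it was 310 bp (299 to 323) and 255 bp (248 to 260). Low only regions of at least 500 bp made up 8.83% of the nearest group and 19.9% of the farthest, while for High only regions these shares were 4.72% and 7.56%, with the highest value, 8.57%, between 10 and 50 kb. At each distance the Low only regions were the wider.

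Regions of 1 class followed each other along the chromosomes more often than their share of all regions. After a Low only region the next region was also Low only in 31.8% (exact interval 31.2 to 32.5%), against 26.3% of all regions, and it was High only in 16.2%. After a High only region the next was High only in 29.8% (29.0 to 30.5%), against 20.6% of all regions, and Low only in 20.5%. Neighbours of opposite 1-list classes were thus less frequent than the shares of those classes, 16.2% against 20.6% and 20.5% against 26.3%. Low only regions were nearer to each other (median 15416 bp) than to a High only region (36942 bp), and High only regions were nearer to each other (25864 bp) than to a Low only region (33615 bp). Neighbouring regions share a chromosome neighbourhood and are not independent.

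Of the 1-list classes, High had the longest unbroken runs. A run is a series of consecutive regions of 1 class with no other region between them. There were 161 High only runs of 5 or more regions, holding 966 regions (6.43% of the class), and 184 Low only runs, holding 1085 regions (5.65%). Runs of 10 or more numbered 6 in High and 3 in Low. Shared regions, the most frequent class, formed runs of up to 23.

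The longest High only run covered 812 kb of chromosome 11 from 80718218 to 81529863 and held 16 regions. It includes the widest High only region of the genome, the 1742 bp region described above. Its other members were 120 to 616 bp wide, among them 554 bp from 81053383 to 81053936 and 616 bp from 81130408 to 81131023. The median gap between neighbours was 45067 bp, so the run is sparse and long. It was bounded by a Low only region 31356 bp before it and by a shared region 86330 bp after it. In the 150 kb on either side lay 12 shared, 6 Low only and 5 High only regions.

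A second High only run, named after its values were seen, held 14 regions over 327 kb of chromosome 12 from 118044026 to 118370721. Its members were 157 to 486 bp wide with a median of 308.5 bp. Together with 150 kb on either side, this 627 kb stretch held 24 High only regions and 5 shared regions, and no Low only region. Another, the first along the genome of the runs of 11, covered 505 kb of chromosome 1 from 78931492 to 79436813 and was followed by 140784 bp without any region.

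The longest Low only run was denser. It held 12 regions within 121 kb of chromosome 7 from 120128851 to 120249871, with a median gap of 7625 bp and widths from 147 to 547 bp. Within 150 kb of it lay 15 shared, 5 Low only and 6 High only regions. The next Low only runs, also named after their values were seen, held 11 regions over 332 kb of chromosome 10 from 99114810 to 99446403 and 10 regions within 56.7 kb of chromosome 19 from 25318070 to 25374776. The chromosome 10 run includes a region of 1132 bp from 99380802 to 99381933. The chromosome 19 run was even in width, from 275 to 444 bp.

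**Figure D4:**
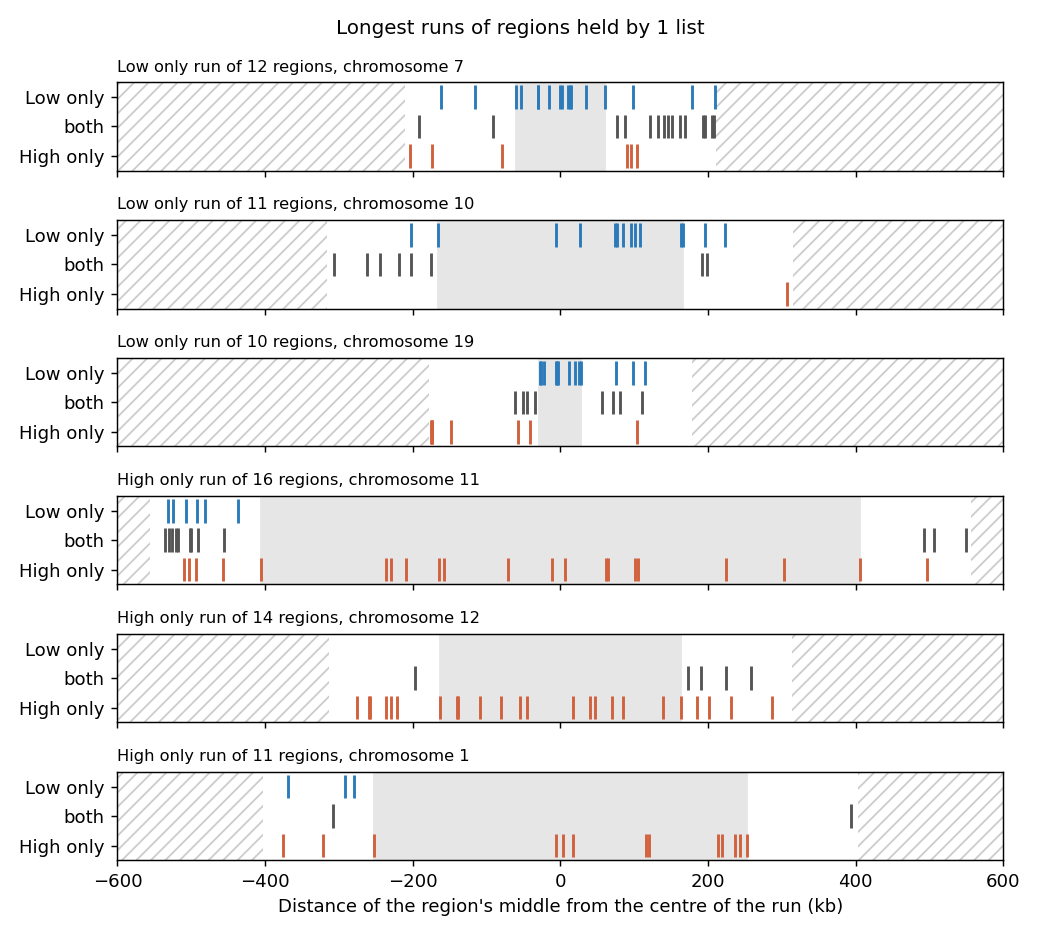
Positions of regions (vertical ticks, 1 row per class) around the 3 longest Low only and the 3 longest High only runs, as distance from the centre of the run (x axis, kb); the run is shaded grey, 150 kb on either side is shown, and hatched parts were not drawn. The Low only runs are 56.7 to 332 kb long and the High only runs 327 to 812 kb, and no Low only region is drawn around the run on chromosome 12.

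On a fixed grid of 100 kb windows, 15100 windows held at least 1 region. Low only regions occurred in 9103 of them (60.3%) and High only regions in 8786 (58.2%), and 5043 windows (33.4%) held both kinds. Dense windows with 5 or more regions of a class numbered 662 for Low only (4.38%) and 252 for High only (1.67%). Both kinds were dense in 14 windows. A fixed limit of 5 is met more easily by the larger class, and Low only regions were 1.28 times as many as High only regions. The part of this in the number of dense windows was not tested. With peaks of at least 200 bp, 501 and 107 windows were dense, and with equal numbers of the widest peaks 36 and 19. Across the 25762 windows from the first to the last region of each chromosome, the number of Low only regions correlated with the number of shared regions at a Pearson r of 0.53 (Spearman rho 0.61). For High only and shared regions the values were 0.40 and 0.49, and for Low only and High only regions 0.27 and 0.34. Without the 10662 empty windows the same pairs gave a Pearson r of 0.37, 0.19 and 0.05, so these values depend on the empty windows, whose inclusion was chosen after seeing the data. They are descriptions over windows that share the density of open chromatin of their chromosome. High only regions were also more often in windows without a shared region, 18.1% of them (exact interval 17.4 to 18.7%) against 11.4% of Low only regions (10.9 to 11.8%).

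The window with the most Low only regions was on chromosome 6 from 94100001 to 94200000, where 11 of 17 regions were Low only, 5 were shared and 1 was High only. A window on chromosome 14 from 20900001 to 21000000 followed, where 10 of 13 regions were Low only. A window on chromosome 19 from 25300001 to 25400000 had the same numbers, and both held 2 shared regions and 1 High only region. The chromosome 14 window stood out in width, with a median of 463 bp for its Low only regions and a maximum of 726 bp, against 266 bp and 306.5 bp for the medians of the other windows. The 10 Low only regions of the chromosome 19 window are the run described above.

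The window with the most High only regions was on chromosome 6 from 54000001 to 54100000, where 11 of 18 regions were High only, 4 were shared and 3 were Low only. On chromosome 18 from 82700001 to 82800000, 10 of 14 regions were High only, with 2 shared and 2 Low only. On chromosome 10 from 117300001 to 117400000, 9 of 11 were High only and 2 were shared, and no Low only region was listed. The High only regions of these windows had median widths of 231, 221 and 305 bp.

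Low had more 1-list regions than High on each of the 19 autosomes and on X. On the autosomes together, 26.2% of regions were Low only and 20.6% High only, a ratio of 1.27. The ratio ran from 1.16 on chromosome 12 to 1.55 on chromosome 3. Chromosome 3 had 1065 Low only regions, 29.4% of its regions (exact interval 27.9 to 30.9%), and 685 High only regions, 18.9% (17.6 to 20.2%). Chromosome 7 had the lowest High only share of the autosomes, 17.7% (16.6 to 18.9%), and chromosome 13 the highest, 22.7% (21.3 to 24.2%).

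The X chromosome had the highest Low only share of the 20 chromosomes other than Y. Of its 1419 regions, 460 were Low only, 32.4% (exact interval 30.0 to 34.9%), and 269 were High only, 19.0% (16.9 to 21.1%), a ratio of 1.71. In shared regions of X the median log2 ratio of Low to High width was 0.10 (0.07 to 0.12), against 0.09 on the autosomes (0.09 to 0.10), so the difference on X was in the number of regions and not in the width of shared ones. Chromosome Y had 20 regions, too few for a share. The sex of the mice and the copy number of X were not part of the data, and their part in the share on X was not tested.

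**Figure D5:**
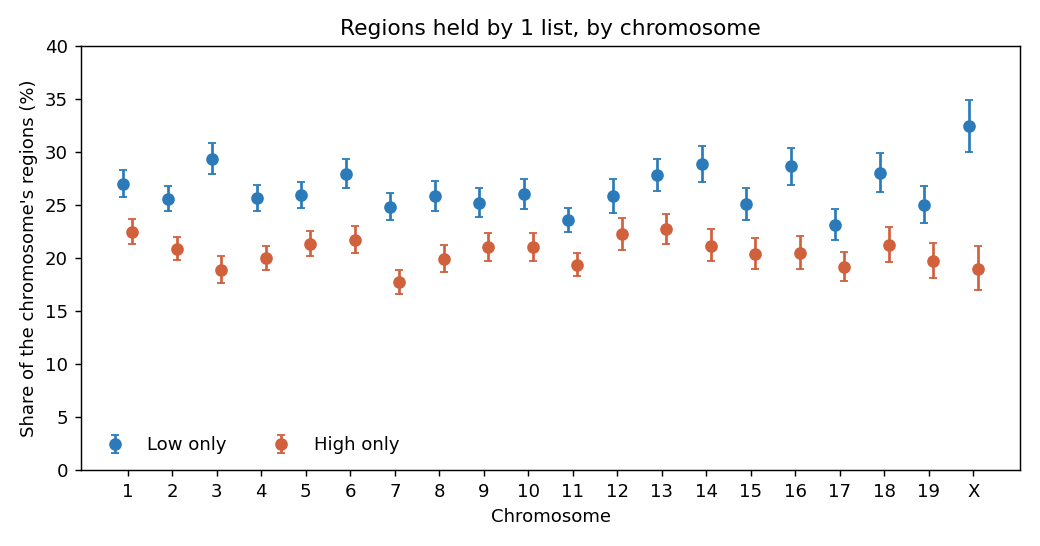
Share of the merged regions of each chromosome (y axis, percent) that were Low only (blue) or High only (orange), with exact 95% binomial intervals as bars; Y is left out for its 20 regions. Low only lies above High only on all 20 chromosomes drawn, and the 2 shares are farthest apart on X, at 32.4% and 19.0%.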

How the data were processed

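Omni-ATAC-seq was run on 3 libraries each of Sox9 Low and Sox9 High cells. The submitters' processing notes name the mm9 build, MACS2 2.1.2, deepTools 2.5.2, Picard 2.10.3, Bowtie2 2.3.4 and Trim Galore 0.4.3. Their settings, the Tn5 shift and the consensus rule are not given in the sources used here. Each file deposited by the authors holds peak positions in bp, with no score, so depth is unknown and weak regions may be missed in either list.

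Positions were read as 1-based, ends inclusive. Regions came from merging both lists, and the other 2 lists were only counted. Shares have exact Clopper-Pearson intervals and medians have order-statistic intervals (95%), which cover counting error only. The named regions are the widest, the most unequal in width, those with the most peaks, the densest 100 kb windows and the longest runs. Further runs were added after their values were seen. The regions and rules were chosen with earlier results of these data known. The functions were tested on simulated data, with 100% of 20000 simulated regions classed right. That checks the functions alone and does not measure how right the classes of the real regions are. The tools were matplotlib 3.10.9, scipy 1.17.1, pandas 2.3.3, numpy 2.4.6 and Python 3.11.15.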

Additional observations from a re-analysis of the deposited data

How the results depend on the processing

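No paired analysis was possible because the lists hold nothing for single libraries, which also means that no replicate could be left out. The planned work on genes and motifs was not run for want of mm9 sequence and annotation. Of 78 values recomputed for 13 results, 37 stayed within their interval or within 1.5-fold and 41 moved, and none changed direction, though the widest peaks in equal number left Low and High level in 1-list regions. Autosomes alone moved none of the 13 results, and starts counted from 0, run only for the 3 region counts and the Low share of 1-list regions, moved none of these. With a reciprocal overlap of 50%, Low held 54.3% of 1-list regions, the median log2 width ratio was 0.0723, the 2-fold wider shares were 0.0542% (Low) and 0.0211% (High), which the rule itself limits, the median distances to a shared region were 10245 bp (Low only) and 13090 bp (High only), High only was followed by its own class in 28.5%, and dense windows numbered 1274 (Low) and 642 (High). A merging distance of 500 bp gave 55.5% Low, distances of 9295 and 13144 bp, and 30.6% of Low only regions followed by their own class. Peaks of at least 200 bp gave 60.4% Low, a log2 ratio of 0.0787, 2-fold shares of 5.21% and 2.03%, distances of 10322 and 14972 bp, 33.5% and 27.4% followed by their own class, and 107 dense High windows. The widest 27197 peaks of each list gave 19667 shared, 7475 Low only and 7466 High only regions (50.03% Low), a log2 ratio of 0.0757, 2-fold shares of 1.63% and 0.220%, distances of 19109 and 21828 bp, 27.2% and 27.0% followed by their own class, and 36 and 19 dense windows. These lists are shorter by construction. Of regions reaching 500 bp, there were 24386 shared, 2773 Low only and 1133 High only, 71.0% Low. Windows of 200 kb gave 1360 and 675 dense windows, since they are larger. For the other moved values the cause was not tested.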

Other observations

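Some parts of the genome were rich in 1-list regions of both populations. In a window of 100 kb on chromosome 5 from 93300001 to 93400000, 6 of 21 regions were Low only, 6 High only and 9 shared. On chromosome 15 from 101200001 to 101300000 the 21 regions were 6 Low only, 7 High only and 8 shared. On chromosome 12 from 103800001 to 103900000 there were 6 Low only, 6 High only and 3 shared regions, and the third widest High only region of the genome, 1396 bp, lies in this window. These windows were chosen after their values were seen. Of the 1968 windows with 5 or more 1-list regions, 1659 (84.3%) held both kinds, 228 (11.6%) held no High only region and 81 (4.12%) held no Low only region. Of all 15100 windows with a region, 5043 (33.4%) held both kinds. A window with 5 or more 1-list regions has more room for both kinds. The 84.3% is thus set in part by that choice and does not show extra mixing.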
